A study of Homo sapiens with 7 samples.

Results

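The genes described are 10 enzymes of fatty acid synthesis and desaturation, out of 12851 genes named on the array and 7982 tested. They were taken by symbol, with all of their probes on all arrays: ACLY, ACSS2, ACACA, FASN, SCD, SCD5, FADS1, FADS2, ACSL1 and HSD17B12. The platform annotation gave them 19 probes. Of these, 12 were above background on all 7 arrays and 2 on 6 arrays (the FADS2 probe and 1 SCD5 probe), and 5 on none (2 for ACSS2, 2 for SCD5 and 1 for ACACA). All 10 genes kept a probe and were tested.

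The arrays measured H1, an established human embryonic stem cell line, after 2 days in 1 of 7 media, with 1 array per medium. E8, a defined medium without serum or albumin, was the base of every medium. It was used alone, with 1.6% AlbuMAX (a bovine serum albumin preparation that carries lipids), with 1% albumin, with 1% chemically defined lipid concentrate (CDL), with a homemade lipid mixture (hCDL), with the 18:1 form of lysophosphatidic acid at 1 μM (LPA), or with LPA and albumin together. The strength of hCDL is 0.1x in its treatment label but 0.01% in its sample title, and which of these applies is unsettled. All cells grew on matrigel and received the ROCK inhibitor Y27632 at passage, removed before the harvest. No medium was replicated, so no value below carries a spread between cultures of 1 medium.

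Cells make fatty acids from cytosolic acetyl-CoA, which ACLY forms from citrate and ACSS2 from acetate. ACACA carboxylates acetyl-CoA to malonyl-CoA, and FASN joins these units into palmitate. SCD and SCD5 place the first double bond in saturated acyl-CoA, whereas FADS1 and FADS2 desaturate polyunsaturated fatty acids. ACSL1 joins long-chain fatty acids to coenzyme A, and HSD17B12 carries out the ketoacyl reduction step of elongation. In mammalian cells many of these genes are known targets of the SREBP transcription factors, whose processing falls when sterols or unsaturated fatty acids are supplied.

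AlbuMAX gave the lowest signal of the 7 media for 9 of the 10 genes, SCD5 being the exception. Across all tested genes AlbuMAX was lowest for 15.5%. The lower level was largest for ACSS2, at 2.24-fold below the mean of the other 6 media, followed among genes measured on every array by FASN at 1.52-fold. The median difference of the 10 genes was -0.48 on the log2 scale, beside -0.02 over all tested genes. None of the 10 passed the limma test of AlbuMAX against the other 6 arrays after Benjamini-Hochberg adjustment, nor did any other gene (0% of 7982). At an unadjusted limma p under 0.05, 8 of the 10 were lower (FADS2 among them, on a reading not above background), beside 214 genes or 2.68% of all tested, and 352 genes in either direction. In this test 1 array stands against 6 arrays of different media, with 5 residual degrees of freedom. The p-values therefore measure how far AlbuMAX lay outside the spread among the other media, with the lone array assumed to vary like them. A permutation of 1 array against 6 cannot give a p below 0.143. In bulk RNA, fewer cells expressing a gene and less RNA per cell cannot be told apart.

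**Figure D1:**
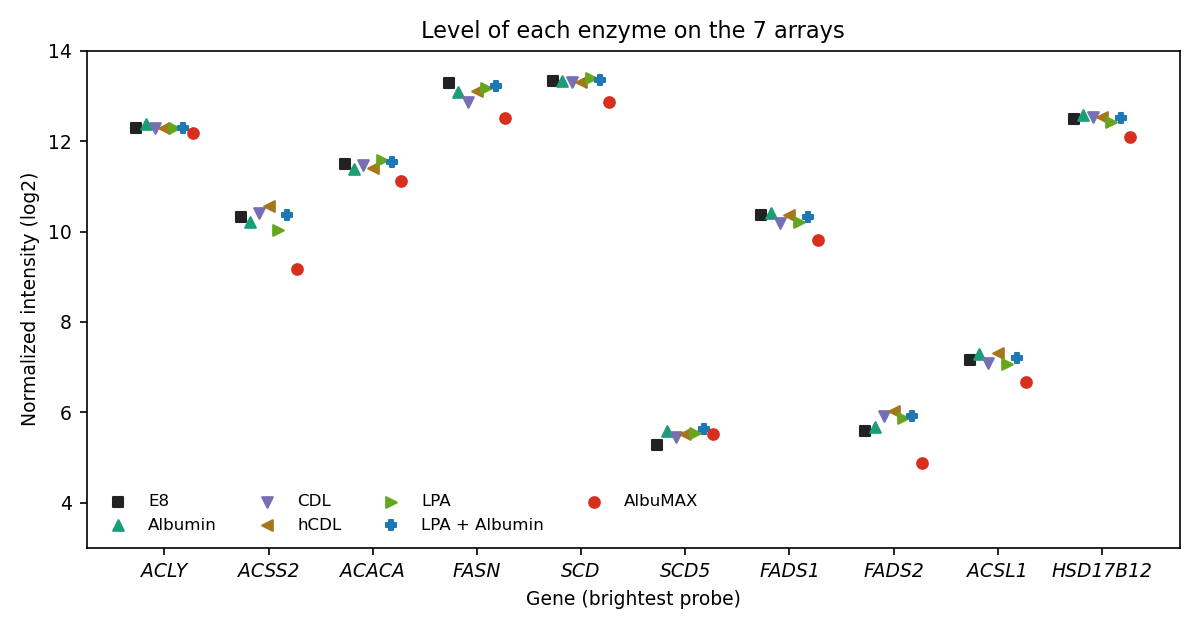
Normalized intensity (log2) of each of the 10 genes, 1 point per medium and array, for the brightest probe of each gene; levels compare only within a gene, because probes differ. AlbuMAX is the lowest point for 9 genes, with ACSS2 at 9.16 against 10.04 to 10.57 in the other media, and lies within the other points for SCD5.

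Among the enzymes that supply and join acetyl units, ACSS2, the acetyl-CoA synthetase of the cytosol and nucleus, stood furthest from its level in the other media. Its log2 intensity was 10.32 in E8, 9.16 in AlbuMAX, 10.22 in albumin, 10.42 in CDL, 10.57 in hCDL, 10.04 in LPA and 10.36 in LPA with albumin. AlbuMAX lay 0.88 below the next lowest medium, LPA, whereas the other 6 media had an SD of 0.182. The difference from their mean was -1.16 (SE 0.171, 95% interval -1.55 to -0.78, limma adjusted p = 0.273), which ranked 8th from the lowest among the 7982 genes. The other ACSS2 probe above background gave 8.86 in AlbuMAX and 9.83 to 10.26 elsewhere, a 2.42-fold difference. Both probes thus placed AlbuMAX below every other medium and LPA next.

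FASN, the multifunctional enzyme that makes palmitate, read 13.29 in E8, 12.52 in AlbuMAX, 13.08 in albumin, 12.86 in CDL, 13.12 in hCDL, 13.17 in LPA and 13.23 in LPA with albumin. AlbuMAX was lowest and CDL next, with a gap of 0.34 between them, and E8 was highest. Against the mean of the other 6 media FASN was lower by 1.52-fold in AlbuMAX (difference -0.60, SE 0.14, interval -0.92 to -0.29, limma adjusted p = 0.856). ACACA, the cytosolic acetyl-CoA carboxylase, was at 11.11 in AlbuMAX and between 11.39 and 11.58 in the other media (difference -0.38, SE 0.10). Its other probe above background gave 10.59 in AlbuMAX and 10.79 to 11.22 elsewhere.

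ACLY, which splits citrate into acetyl-CoA and oxaloacetate, moved least in this group. Its brighter probe read 12.17 in AlbuMAX and between 12.28 and 12.37 in the other 6 media, a 1.10-fold difference (limma adjusted p = 0.856). Its dimmer probe gave a wider separation, 11.15 in AlbuMAX against 11.45 to 11.67, which is 1.31-fold. AlbuMAX was lowest on both ACLY probes, but the size depended on the probe.

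The desaturases differed among themselves. SCD, the main delta-9 desaturase, was almost constant in the media other than AlbuMAX: 13.33 in E8, 13.33 in albumin, 13.31 in CDL, 13.31 in hCDL, 13.40 in LPA and 13.36 in LPA with albumin. AlbuMAX read 12.87, or 0.43 below the next lowest medium, whereas the other 6 had an SD of 0.0346. The difference was -0.47 (SE 0.0782, interval -0.64 to -0.29, 1.38-fold, limma adjusted p = 0.372). Both lipid mixtures, CDL and hCDL, lay beside E8 and albumin.

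FADS1, the delta-5 desaturase, was at 9.82 in AlbuMAX and between 10.18 in CDL and 10.40 in albumin among the others (difference -0.48, SE 0.115, limma adjusted p = 0.856). FADS2, the delta-6 desaturase, had a dim probe that was above background on 6 arrays and not above background in AlbuMAX. Its log2 intensity was 5.58 in E8, 5.68 in albumin, 5.92 in CDL, 6.03 in hCDL, 5.88 in LPA and 5.91 in LPA with albumin, beside 4.87 in AlbuMAX. Taking the lowest signal above background on the AlbuMAX array as the bound, FADS2 was at least 1.44-fold lower there than the mean of the other 6 media (limma adjusted p = 0.856 on the measured values). That bound applies to the background-corrected values only. Without background correction the measured FADS2 difference was -0.28 on the log2 scale. SCD5, the second human stearoyl-CoA desaturase, showed no separation of AlbuMAX from the other media. It read 5.51 in AlbuMAX and from 5.27 in E8, where it was not above background, to 5.63 in LPA with albumin. Its difference was 0.01 with an interval of -0.50 to 0.51, so changes of the size seen for SCD or FADS1 lie within that interval.

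Of the remaining enzymes, ACSL1, a long-chain acyl-CoA synthetase, read 6.67 in AlbuMAX and 7.06 to 7.31 in the other media. Its difference was -0.51 (SE 0.171, limma adjusted p = 0.856). HSD17B12, the elongation reductase, read 12.49 in E8, 12.10 in AlbuMAX, 12.58 in albumin, 12.53 in CDL, 12.54 in hCDL, 12.43 in LPA and 12.51 in LPA with albumin. The 6 other media did not overlap AlbuMAX, and the difference was -0.42 (SE 0.0861, limma adjusted p = 0.773). The other HSD17B12 probe gave a 1.34-fold difference in the same direction.

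**Figure D2:**
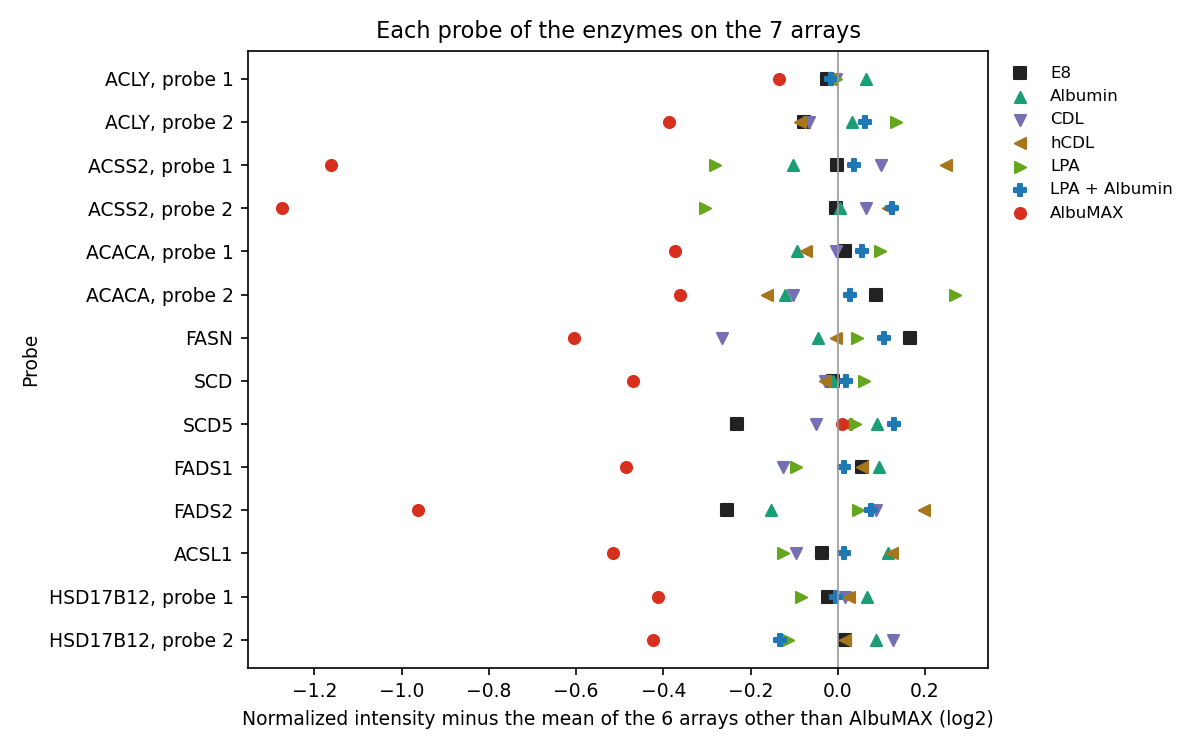
Normalized intensity (log2) of the 14 probes above background on at least 1 array, each minus its own mean over the 6 arrays other than AlbuMAX, with 1 point per array. On 13 probes the AlbuMAX point is the lowest of the 7, from -0.13 for the brighter ACLY probe to -1.28 for the dimmer ACSS2 probe, and the SCD5 probe is the exception.

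Promoter sequence from RefSeq (GRCh38.p14, 250 bases before to 50 after a start site) matched 8 of the 10 genes, in 17 windows. The windows of ACSS2, SCD and FADS1 are shown as examples of an acetyl supply enzyme and 2 desaturases that read lowest in AlbuMAX, and 1 ACSL1 window because it held the sterol regulatory element. Each is printed 5′ to 3′ on the gene's strand. Capitals mark CCAAT and GGGCGG on either strand, so CCGCCC and ATTGG are also capitalised, and in the ACSL1 window also the sterol regulatory element, TCACNCCAC on either strand.
ACSS2 window 1, chr20:34874739-34875038, plus strand: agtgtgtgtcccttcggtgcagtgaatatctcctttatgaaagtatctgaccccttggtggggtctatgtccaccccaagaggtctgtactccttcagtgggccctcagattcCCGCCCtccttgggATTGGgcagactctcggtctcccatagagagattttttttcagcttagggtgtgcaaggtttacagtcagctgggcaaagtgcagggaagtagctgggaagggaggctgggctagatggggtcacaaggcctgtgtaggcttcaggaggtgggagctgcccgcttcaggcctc
ACSS2 window 2, chr20:34876362-34876661, plus strand: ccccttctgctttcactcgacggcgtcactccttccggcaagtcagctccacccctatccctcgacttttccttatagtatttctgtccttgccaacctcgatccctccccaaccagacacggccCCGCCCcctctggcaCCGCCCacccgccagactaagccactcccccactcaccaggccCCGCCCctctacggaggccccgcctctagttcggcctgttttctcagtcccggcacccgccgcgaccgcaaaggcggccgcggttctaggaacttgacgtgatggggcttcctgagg
SCD, chr10:100346983-100347282, plus strand: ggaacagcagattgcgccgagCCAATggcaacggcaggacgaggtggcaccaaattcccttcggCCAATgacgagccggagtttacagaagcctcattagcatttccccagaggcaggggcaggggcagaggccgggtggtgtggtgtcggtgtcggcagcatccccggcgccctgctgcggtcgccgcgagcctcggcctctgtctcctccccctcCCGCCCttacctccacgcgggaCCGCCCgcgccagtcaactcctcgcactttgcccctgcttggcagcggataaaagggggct
FADS1, chr11:61816954-61817253, minus strand: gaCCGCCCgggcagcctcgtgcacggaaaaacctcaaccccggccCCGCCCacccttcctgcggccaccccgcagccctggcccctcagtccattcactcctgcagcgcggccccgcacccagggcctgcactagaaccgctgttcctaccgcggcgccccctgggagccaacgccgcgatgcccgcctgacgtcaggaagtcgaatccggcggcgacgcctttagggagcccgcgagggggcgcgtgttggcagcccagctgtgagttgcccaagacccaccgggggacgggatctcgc
ACSL1 window 1, chr4:184805504-184805803, minus strand: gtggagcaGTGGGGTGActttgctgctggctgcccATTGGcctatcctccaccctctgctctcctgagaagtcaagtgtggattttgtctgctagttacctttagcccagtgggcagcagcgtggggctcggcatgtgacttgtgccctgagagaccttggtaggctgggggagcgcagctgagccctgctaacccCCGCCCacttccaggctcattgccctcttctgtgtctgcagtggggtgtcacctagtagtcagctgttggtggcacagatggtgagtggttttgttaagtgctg

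The sterol regulatory element, searched as TCACNCCAC on both strands, occurred in 1 of the 17 windows, the ACSL1 window above, and in 1.13% of all 35116 RefSeq promoter windows. CCAAT occurred in 9 windows of 7 genes, beside 34.6% of all windows, and GGGCGG in 12 windows of 8 genes, beside 45.0%. No motif searched overlapped another in the 5 windows printed. These matches describe letters within the windows only. FASN and HSD17B12 had no window.

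LPA was the supplement with the most genes past the test. In an additive model of LPA, albumin and lipid mixture over the 6 arrays without AlbuMAX, 875 genes (11% of all tested) passed for LPA. A further fit, chosen after seeing the data, took LPA as a term, which sets AlbuMAX against the 4 media without LPA, with 4 residual degrees of freedom. In that fit 6 of the 8 enzymes above background on every array fell in AlbuMAX: ACSS2, FASN and ACACA of acetyl supply and synthesis, the desaturases SCD and FADS1, and HSD17B12. FADS2 also passed on its measured values, which makes 7 of 10, but its AlbuMAX reading was not above background and gives only a bound. None rose. Of all tested genes, 263 (3.29%) fell and 417 (5.22%) rose.

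ACSS2 fell by 1.22 on the log2 scale (SE 0.141, limma adjusted p = 0.000108), SCD fell by 0.45 (SE 0.0805, limma adjusted p = 0.00316) and HSD17B12 fell by 0.44 (SE 0.0851, limma adjusted p = 0.00559). FADS1 fell by 0.50 (limma adjusted p = 0.011), FASN fell by 0.56 (limma adjusted p = 0.0115) and ACACA fell by 0.34 (limma adjusted p = 0.0325). FADS2 was at least 1.41-fold lower in AlbuMAX than the mean of the 4 media without LPA (limma adjusted p = 0.0404 on the measured values). ACSL1, ACLY and SCD5 did not pass, at -0.54, -0.14 and 0.05 (limma adjusted p = 0.0767, 0.356 and 0.932). The ACSS2 call held under all 17 settings tried, whereas SCD, HSD17B12, FADS1 and FASN passed in 16, failing where the intensity trend was left out. ACACA passed in 10 of 17 and FADS2 in 7 of 16.

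A second fit added after seeing the data carried LPA, albumin and lipid mixture as terms beside AlbuMAX, with 2 residual degrees of freedom. AlbuMAX was set against E8, albumin and the lipid mixtures. The E8 and albumin levels here were model estimates that also drew on the LPA arrays, with LPA and albumin taken to add. Against E8, 5 of the 10 genes fell (ACSS2, FASN, SCD, FADS1 and HSD17B12), beside 1.99% of all genes. Against albumin as estimated by the model, the same 5 genes fell, beside 0.827%, with ACSS2 at -1.17 and SCD at -0.45. On the arrays themselves ACSS2 read 9.16 in AlbuMAX and 10.22 in albumin. Against the 2 lipid mixtures, ACSS2, SCD and HSD17B12 fell, and FADS2 passed as a 4th on measured values (limma adjusted p = 0.0331), where its bound was at least 1.59-fold lower. Of all genes 2.18% fell. ACSS2 was lower in AlbuMAX than with the lipid mixtures by 1.34 (limma adjusted p = 0.000264) and SCD by 0.44 (limma adjusted p = 0.0176), while FASN at -0.47 (limma adjusted p = 0.0532) and FADS1 at -0.45 (limma adjusted p = 0.0521) did not pass. These counts rested on single arrays: against E8 the count was 1 without the E8 array, against albumin 1 without the albumin array, and against the lipid mixtures 2 without the hCDL array. Without the intensity trend they were 0, 0 and 1. Under that setting ACSS2, SCD and HSD17B12 were not called against the lipid mixtures.

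Set directly against the single E8 array, with no test, AlbuMAX was at least 1.5-fold lower for ACSS2 (2.23-fold), FASN (1.70-fold) and FADS2, beside 460 genes or 5.76% of all tested. For FADS2 the bound against E8 was only 1.21-fold. The other 5 media placed none of the 10 genes 1.5-fold below or above E8. Among all tested genes, these media placed 2.09% (hCDL) to 7.02% (LPA with albumin) that far below E8. They placed 2.69% (hCDL) to 9.52% (LPA with albumin) that far above it. With 10 genes, finding none does not set them apart from these shares. FASN in CDL came closest on the lower side, at 1.35-fold, and FADS2 in hCDL was the highest above E8, by 0.44 on the log2 scale.

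The same test was run for every other medium. In the limma tests of E8, albumin, CDL, hCDL, LPA and LPA with albumin, each against the remaining 6 arrays, 0 of the 10 and 0% of all genes passed, and 0 of the 10 reached an unadjusted p under 0.05. Between 153 (hCDL) and 962 (LPA with albumin) genes did so. The AlbuMAX array is among the 6 in each of these tests and widens their spread. In the additive model, which leaves it out, none of the 10 genes passed for LPA, for albumin (8 genes, 0.1% of all tested) or for lipid mixture (0 genes, 301 at an unadjusted p under 0.05).

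That model has 2 residual degrees of freedom, fits CDL and hCDL under a single term although they are separate mixtures, and takes LPA and albumin to add. Its intervals hold no spread between cultures of 1 medium. They therefore cannot limit how large the effect of a supplement was, and are given as fitted values only. For SCD the terms were -0.03 for lipid mixture (95% interval -0.22 to 0.16), -0.02 for albumin (-0.19 to 0.14) and 0.05 for LPA (-0.12 to 0.22). As fitted, none of these intervals reached the AlbuMAX difference of -0.47, but whether a repeat culture would do so was not tested. For FASN the lipid mixture term was -0.23 (interval -0.48 to 0.02, limma adjusted p = 0.99), which did not reach -0.60, although it overlapped the AlbuMAX interval. For ACSS2 the same term was positive, 0.28 (interval 0 to 0.56, limma adjusted p = 0.99), and so opposite in sign to the AlbuMAX difference. FADS2 was also positive with lipid mixture, at 0.37, but its interval ran from -0.15 to 0.89. None of the 10 genes passed a test of the interaction of LPA with albumin, where 3 of all 7982 genes did (0.0376%). Among the 10, ACSS2 had the smallest limma adjusted p, 0.595.

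**Figure D3:**
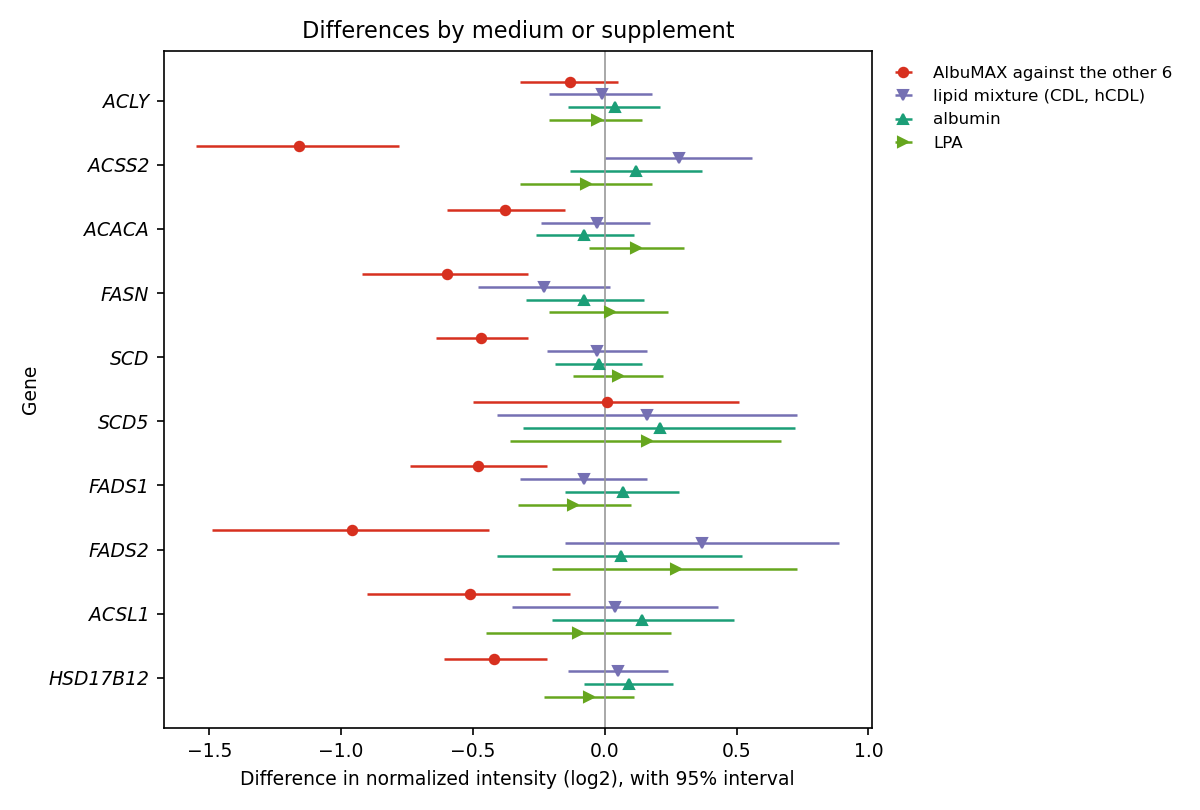
Difference in normalized intensity (log2) for each gene with its 95% interval, for AlbuMAX against the other 6 arrays and for the lipid mixture, albumin and LPA terms of the additive model over 6 arrays. AlbuMAX estimates lie to the left of 0 for 9 genes, as for ACSS2 at -1.16, while the supplement terms run from -0.23 (FASN, lipid mixture) to 0.37 (FADS2, lipid mixture).

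AlbuMAX, CDL and hCDL all carry lipid mixtures, and were set together against the other 4 arrays. Those others include both LPA media, and LPA is itself a lipid, so this is not lipid against no lipid. None of the 10 genes passed (0% of all genes), although all 10 differences were negative, with a median of -0.16. FASN was furthest from 0, at -0.36 (SE 0.127, limma adjusted p = 1). Without AlbuMAX, ACSS2 and FADS2 turned positive, at 0.26 and 0.21, as did HSD17B12 at 0.04 and ACSL1 at 0.02. FASN at -0.20, ACACA at -0.06, FADS1 at -0.05, SCD at -0.04 and ACLY at -0.02 drew closer to 0. SCD5 was at -0.01 with AlbuMAX and -0.02 without it. The median over the 10 genes was -0.02 without AlbuMAX.

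Genes of neighbouring steps were grouped by role. None passed in AlbuMAX against the other 6 arrays. With LPA as a term, 1 of 8 tested genes listed as SREBP pathway regulators fell and 1 rose. INSIG1, which retains the SREBP complex in the endoplasmic reticulum and is itself an SREBP target, read 10.67 in E8, 9.40 in AlbuMAX, 10.65 in albumin, 10.58 in CDL, 10.64 in hCDL, 10.11 in LPA and 10.24 in LPA with albumin. It was lowest in AlbuMAX, with both LPA media next, and fell by 1.24 in that fit (SE 0.0985, limma adjusted p = 5.18e-06). The gene that rose, TRIM22, is an interferon-induced ubiquitin ligase and not an established regulator of SREBP, so that without it 1 of 7 fell and 0 rose. It was also high in both LPA media (8.79 and 9.18, beside 9.29 in AlbuMAX and 6.31 to 7.09 elsewhere).

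Among 8 other acyl-CoA synthetases and binding proteins, 2 fell with LPA as a term, ACSL4, a synthetase for arachidonic acid (-0.47, limma adjusted p = 0.0131), and FABP7, a brain fatty acid binding protein (-0.99, limma adjusted p = 0.0421). FABP7 was about as low in the LPA media, at 5.38 and 5.47, as in AlbuMAX at 5.37, beside 6.16 to 6.85 elsewhere. FABP5, the epidermal binding protein, rose by 0.90 (limma adjusted p = 6.07e-05), and it read 12.39 in AlbuMAX, 11.86 and 12.08 in the LPA media and 11.46 to 11.51 elsewhere. None of 6 tested genes of cofactor and citrate supply passed, with differences of -0.22 to -0.03 against the other 6 arrays, and none of 11 genes each of lipid acylation and of fatty acid oxidation. The medians of the last 2 lists were -0.08 and 0.01. None of 5 PPAR-responsive genes passed in either of these fits, and PLIN2, a lipid droplet coat protein, read 10.56 in AlbuMAX and 10.42 in hCDL, above 9.97 to 10.28 elsewhere. The widest difference in the PPAR list was that of TXNIP, at 1.76 for AlbuMAX against the other 6 arrays. TXNIP read 9.47 in AlbuMAX, 9.21 in LPA with albumin, 8.91 in albumin, 7.97 in LPA and 6.11 to 7.23 elsewhere. For these neighbouring lists, the fits with all supplements as terms are not described here. SREBF1, SREBF2, ELOVL5, ELOVL6, SLC25A1, PDK4 and the lists of elongases and desaturase partners were not analysed here.

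**Figure D4:**
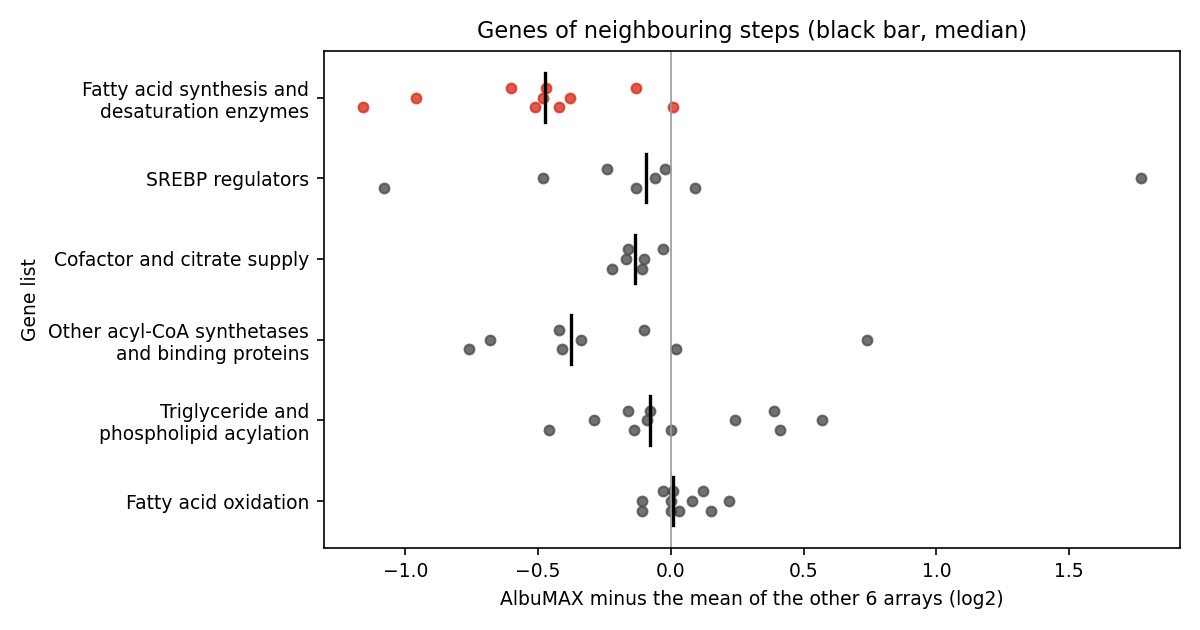
AlbuMAX minus the mean of the other 6 arrays (log2), 1 point per gene, for the 10 enzymes (red) and 5 lists of neighbouring steps (grey), with a black bar at each median. The 10 enzymes have a median of -0.48, beside -0.10 for SREBP regulators, -0.38 for other acyl-CoA synthetases and binding proteins, and 0.01 for fatty acid oxidation.

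The 8 enzymes above background on every array were correlated over the 7 media, and this rested on the AlbuMAX array. Over their 28 pairs Pearson's r ran from 0.65 to 0.97, with a median of 0.87. Without AlbuMAX it ran from -0.91 to 0.86, with a median of 0.03 and 14 negative pairs. These values describe 7 and 6 arrays that share cells and base medium. The genes most like ACSS2 were CCDC24 (r = 0.98), HMGCS1, the cholesterol synthesis enzyme HMG-CoA synthase (r = 0.952), and ADD2 (r = 0.95). Those most like HSD17B12 were HMGCS1 (0.975), ADD2 (0.974) and PER3 (0.963), and for SCD they were BCL7C (0.969), ADD2 (0.959) and ACAT2 (0.958). Without AlbuMAX the SCD values were 0.423, -0.436 and -0.162, and those of ACSS2 were 0.849, 0.708 and 0.465. HSD17B12 then gave 0.893, 0.598 and 0.973. FADS1 and ACSL1 were in each other's top 3 (r = 0.973, and 0.855 without AlbuMAX). ACACA was most like LPIN1 (0.97, and 0.893 without AlbuMAX), FASN like KCNMB3 (0.93 and 0.992) and ACLY like HTRA1 (0.962 and 0.885). These likenesses were sought among 2246 genes that varied by an SD of at least 0.2.

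The arrays had 34.6% (E8) to 37.3% (hCDL) of 33866 probes above background, which bounds how dim a gene could be followed. The line's identity markers were present: all 5 pluripotency markers tested (POU5F1, NANOG, LIN28A, SALL4 and PODXL) were above background on every array. SOX2 was not analysed here. Their summed log2 levels were 58.82 to 59.53, and 59.00 in AlbuMAX, but the sum joins opposite differences. PODXL read 13.46 in AlbuMAX, 13.33 and 13.57 in the LPA media and 12.82 to 12.99 elsewhere. POU5F1 read 10.37 in AlbuMAX, 10.82 in LPA, 10.29 in LPA with albumin and 10.61 to 11.02 elsewhere. With LPA as a term, AlbuMAX differed by 0.58 for PODXL, which passed, and by -0.45 for POU5F1, which did not. For NANOG, LIN28A and SALL4 it differed by -0.23, -0.16 and 0.06, also without passing. Of 7 markers of other cell types tested, AFP and NES rose in AlbuMAX with LPA as a term (limma adjusted p = 1.4e-05 and 3.31e-05), and both were also high in the LPA media. AFP, an endoderm marker, read 9.17 in AlbuMAX, 8.74 and 8.75 in the LPA media and 5.80 to 6.71 elsewhere. FOXA2, the other endoderm marker tested, was above background in albumin alone and read 4.51 in AlbuMAX, while GATA4 and GATA6 were not above background. The endoderm pair summed to 13.69 in AlbuMAX, 13.45 in LPA, 13.18 in LPA with albumin and 10.65 to 11.75 elsewhere, which followed AFP. NES, a neural progenitor filament, read 11.15 in AlbuMAX, 11.20 and 11.59 in the LPA media and 9.74 to 9.94 elsewhere. The neural list of NES, OTX2 and NEUROG2 summed to 25.01 in AlbuMAX, 25.21 and 24.94 in the LPA media and 22.33 to 23.29 elsewhere, with PAX6 not above background. OTX2 and NEUROG2 did not pass (limma adjusted p = 0.216 and 0.478). The mesoderm marker KDR read 6.64 in AlbuMAX and 6.80 to 7.41 elsewhere, and the fibroblast marker THY1 read 11.38 and 11.16 to 11.51, neither passing (limma adjusted p = 0.192 and 0.976). HAND1, DCN and LUM were not above background. The part of these markers in the AlbuMAX differences was not tested.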

How the data were processed

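Per the labels, 7 samples of H1 cells were given 7 media for 2 days, and RNA was labelled for Illumina bead arrays. The deposited table gives a summary intensity for each probe on each array, with its detection p-value, and calls itself not normalized. A second deposited table holds the submitters' processed intensity values and served as an alternative. The software behind either table is not given in the sources used.

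From the first table, log2 values were obtained with the neqc function (limma 3.58.1, R 4.3.3). It subtracts background by normexp, here with an offset of 16 and with negative controls derived from the detection p-values, and then equalizes quantiles. A probe was kept if its detection p was under 0.01 on any array, and each gene was represented by its brightest probe. The platform annotation gave 1 symbol to 19221 probes, several to 3 and none to 14642. A reading not above background was bounded by the lowest signal above background on its array. Every such bound applies to the background-corrected values only.

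Tests used limma with an intensity trend, adjusted over all 7982 genes by Benjamini-Hochberg and called at 0.05. The code of the planned fits was checked on simulated data, but that of the fits added after seeing the data was not. Named genes were the 10 enzymes with all their probes, neighbouring genes called in AlbuMAX, 8 fixed pathway genes, and the 3 genes most correlated with each enzyme. For neighbouring genes, the rule was read on the fit with LPA as a term, since none was called in the first. Alternatives covered background, normalization, filter, probe choice, trend and single arrays. The enzymes and lists were chosen with earlier results of these data known. Arrays limit precision by their number.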

Additional observations from a re-analysis of the deposited data

How the results depend on the processing

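No paired analysis was possible because each medium has 1 array. In every comparison without added terms, the number of the 10 enzymes called stayed 0 under each other setting of background, normalization, filter, probe choice, trend or array left out. The smallest adjusted p among them for AlbuMAX against the other 6 arrays was 0.132 (limma, ACSS2, without the LPA with albumin array). With terms added after seeing the data, that count was 7 (LPA) and 5 (all supplements). Counts include FADS2 where its measured values passed.

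The count of 7 was 2 without the intensity trend and 5 to 7 when single arrays were left out. With all supplements as terms, the count against E8 was 3 without background correction, 1 without a filter on dim probes, 0 without the trend and 1 to 4 without single arrays. Against albumin it was 3 without background correction, 3 under cyclic loess, 1 without a filter, 0 without the trend and 1 to 5 without single arrays. Against the lipid mixtures it was 1 without a filter, 1 without the trend and 2 to 6 without single arrays. The cause of these shifts was not tested.

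For AlbuMAX against the other 6 arrays, these settings gave -1.22 to -1.03 for ACSS2, -0.65 to -0.57 for FASN and -0.47 to -0.45 for SCD. FADS2, dim throughout, ran from -1.01 to -0.28, and ACSL1 from -0.54 to -0.28. SCD5 turned sign, between -0.04 and 0.03 as single arrays were left out. In the comparison of lipid-bearing media, leaving out single arrays gave -0.45 to 0.26 for ACSS2, -0.37 to 0.21 for FADS2, -0.30 to 0.02 for ACSL1, -0.19 to 0.04 for HSD17B12 and -0.09 to 0.03 for SCD5. The genes called for LPA ranged from 151 to 927 over the settings that tested genes, for albumin from 0 to 21 and for lipid mixture from 0 to 20. Where every probe was tested, 1080 probes were called for LPA.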
